A study of Mus musculus with 9 samples.

Results

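Forkhead transcription factors were followed through the formation of embryoid bodies from wild-type embryonic stem cells of the mouse. Embryoid bodies are aggregates of cultured pluripotent cells in which derivatives of the germ layers arise. A gene was taken as a member when its Ensembl ID mapped, in GENCODE release M21, to a protein-coding symbol of the form Fox, a letter from a to s, a number and at most 1 further letter. Foxa1, Foxa2, Foxd3, Foxf1 and Foxh1 were left out by that rule, which used names only and no measured value. This gave 39 genes out of 54232 rows with a gene ID, of which 21906 were protein-coding. Polyadenylated RNA of the groups EBD2, EBD5 and EBD6 was sequenced in 3 libraries each. All 9 libraries came from wild-type (WT) cells, their source is given as embryonic stem cells, and no further allele, agent or strain is given. The labels do not say what the number in EBD2, EBD5 and EBD6 stands for, nor whether replicates were separate cultures, so the p-values cover the scatter among these libraries alone, which may be technical.

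Libraries held 5453399 to 11703388 counts, the deepest being EBD6 replicates 2 and 3. Counts of EBD2 replicates 1 and 2, and of EBD6 replicates 2 and 3, showed no difference larger than sampling noise (chi-square per gene 0.949 and 1.01), and each pair was counted as 1 sample. Every mean ± SD below is therefore over 2 EBD2, 3 EBD5 and 2 EBD6 samples, while levels of all 9 libraries are given in the order of replicates 1 to 3. A level is in CPM, that is, counts scaled to one common library size, unless it is given per kilobase of exon. Different genes are ranked on that second scale. Its length covers all annotated exons of a gene, so the order of genes depends on that choice of length. Markers of pluripotent cells (8 genes, none at 0 in a group) summed to 1848 to 2050 CPM in EBD2, 1258 to 1332 in EBD5 and 1157 to 1295 in EBD6, so markers of the labelled source were present in all groups. Markers of visceral endoderm (8 genes, none at 0) summed to 45.2 to 48.5, 2420 to 2458 and 1346 to 1427 CPM in the same order. These are bulk libraries, in which fewer cells of a type and less RNA per cell cannot be told apart.

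Forkhead proteins share a DNA-binding domain of the winged helix type, whose recognition helix lies in the major groove of the DNA. Subfamilies, named by letter, differ in what surrounds that domain and in what controls them: FoxO proteins are held out of the nucleus when Akt phosphorylates them, FoxM1 acts with the cell cycle, and FoxA, FoxC, FoxF and others mark particular embryonic territories. In embryonic tissues many members of the second kind switch on in one lineage, whereas several FoxO, FoxK, FoxN and FoxP members are found in most cells.

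The stretch of coding sequence for the recognition helix is shown because it is what the members have in common and because it lets near copies be seen. It was found by its codons in GENCODE M21 coding sequences (mm10) of 38 of the 39 genes, with Foxr1 giving no match. Capitals mark bases that differ from Foxc1, and each line gives 24 bases of the coding strand.
Foxc1 (chr13:31807577-31807600, plus strand): aacagcatacggcacaacctctcg
Foxq1 (chr13:31559397-31559420, plus strand): aacTCcGtGcgCcacaacctctcg
Foxf2 (chr13:31626515-31626538, plus strand): aacTCcGtGcgCcacaacctctcg
Foxb1 (chr9:69760049-69760072, minus strand): aacagcCtGcgCcacaaTctctcC
Foxe1 (chr4:46344494-46344517, plus strand): aacagcatCcgCcacaacctcAcC
Foxa3 (chr7:19014684-19014707, minus strand): aacTCcatCcggcaTTCGctGtcC
Foxo4 (chrX:101258177-101258200, plus strand): aacTCcatCcgTcacaacctGtcC
Foxk2 (chr11:121296029-121296052, plus strand): aaTTCAatTcgCcacaaTctctcT
Foxn4 (chr5:114258671-114258694, minus strand): aacTCcGtGAggcacaacctGtcC
Foxr2 (chrX:153130819-153130842, plus strand): aacaCcatTcgCcacaacctctGC
Foxp4 (chr17:47871328-47871351, minus strand): aaTGCcGtGcgCcacaacctcAGC
Among the 38 genes there were 35 distinct stretches, with a median of 6 and at most 13 bases different from Foxc1. Foxq1 and Foxf2 held the same stretch, as did Foxe1 and Foxe3, and Foxd4 and Foxl1. In 22 genes, Foxc1 included, the codons encode the same residues. Foxp4 differed from Foxc1 at 9 bases. Despite the shared helix, no pair of members held more than 4 exonic 50-base words in common, so few reads could be shared between members.

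A core of 12 genes exceeded 25 CPM in every library: Foxo1, Foxo3, Foxo4, Foxk1, Foxk2, Foxm1, Foxn2, Foxn3, Foxj2, Foxj3, Foxp1 and Foxp4. Per kilobase of exon they made up 88.3% of the summed forkhead level in EBD2, 87.7% in EBD5 and 84.2% in EBD6. On that scale Foxo4 was the highest member in each group, at 28.3 ± 0.596, 34.2 ± 2.55 and 42.1 ± 1.07 CPM per kilobase. Foxm1 came next in each, at 24.9 ± 0.446, 30.2 ± 1.92 and 29.99 ± 0.842 CPM per kilobase, and in EBD5 the pair did not differ beyond their SDs. In EBD6 Foxm1 did not differ beyond the SDs from Foxp4, at 28.9 ± 1.07 CPM per kilobase. These ranks rest on the length used: in EBD2 Foxp1 held 126.7 CPM and Foxo4 98.5, over 13751 and 3485 bases of exon. Ranks with the length of a single transcript were not tested. Foxq1 ranked 22 in EBD2, where it did not differ beyond the SDs from Foxp3, and reached rank 10 in EBD5 and rank 9 in EBD6. It did not differ beyond the SDs from its neighbours in rank there, Foxn3 and Foxk1 in EBD5 and Foxn2 and Foxo1 in EBD6. At its mean, a group held at least 1 CPM of 23 members in EBD2, 23 in EBD5 and 27 in EBD6. No count was found for 7, 8 and 3 members respectively; EBD6 replicates 2 and 3 were the deepest libraries and EBD6 replicate 1 the shallowest. The plot of levels orders the genes by their highest group level, with the core at the top and Foxq1 among it.

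**Figure D1:**
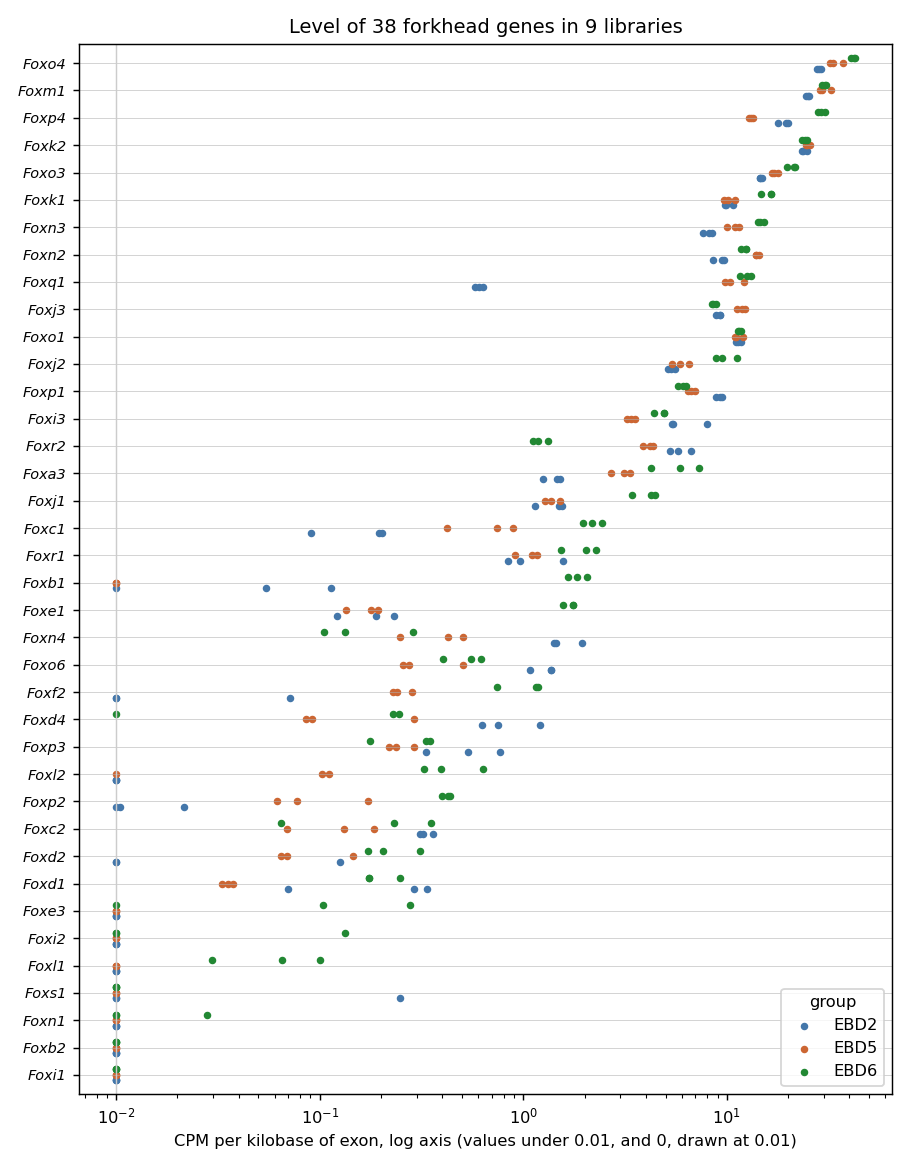
Level of 38 of the 39 forkhead genes in CPM per kilobase of exon (log axis; values under 0.01, and 0, are drawn at 0.01), 1 point per library, with EBD2 in blue, EBD5 in orange and EBD6 in green. Foxo4 is highest, at 28.3, 34.2 and 42.1 on average, Foxq1 moves from 0.6 in EBD2 to 10.8 and 12.2, and Foxb2 and Foxi1 are at 0 in every library.

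Of the 39 genes, 27 passed the filter on low counts and were tested with edgeR's quasi-likelihood test, adjusted over all 16168 genes tested. A member that passed only through the group where it was high had to differ, so the counts below describe these 27 and not the family. In EBD5 against EBD2, 11 rose and 7 fell, 66.7% of 27 against 70.0% of all tested genes, with 40.7% higher against a background of 34.9% and 25.9% lower against 35.1%. In EBD6 against EBD5, 15 rose and 4 fell, 70.4% against 70.2% of all tested genes, with 55.6% higher against 36.9% and 14.8% lower against 33.3%. In EBD6 against EBD2, 18 rose and 5 fell, 85.2% against 66.1%, with 66.7% higher against 33.8% and 18.5% lower against 32.3%. The first 2 totals lie near the background and are no result about forkhead genes. The third includes Foxb1, Foxf2 and Foxp2, which held 3, 1 and 3 counts in EBD2 and 165, 75 and 203 in EBD6. Such calls follow in part from the filter, so the third total is no result about the family either. The median log2 change of the 27 was 0.02, 0.48 and 0.62 in these comparisons with TMM scaling. Over all tested genes it was -0.01, 0.04 and 0.01. With the offsets for GC content and length described below, the median of the 27 was higher in EBD5 against EBD2 and lower in EBD6 against EBD5. These medians are therefore no result about the family. The 3 comparisons share their groups, so their counts are not independent of each other.

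By direction, Foxa3, Foxc1, Foxf2, Foxn3, Foxo3, Foxo4 and Foxp2 rose at both steps, and Foxp1 and Foxr2 fell at both. Among those that passed only at the second step, where they rose, were Foxb1, Foxe1, Foxj1, Foxj2, Foxk1 and Foxr1. Foxm1 and Foxq1 rose at the first step alone, and Foxi3, Foxn4, Foxo6 and Foxp3 fell at the first step alone. Foxj3 and Foxn2 rose and then fell, Foxp4 fell and then rose, and Foxk2 and Foxo1 passed at neither step. Whether the steps of a gene differed in size was not tested.

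**Figure D2:**
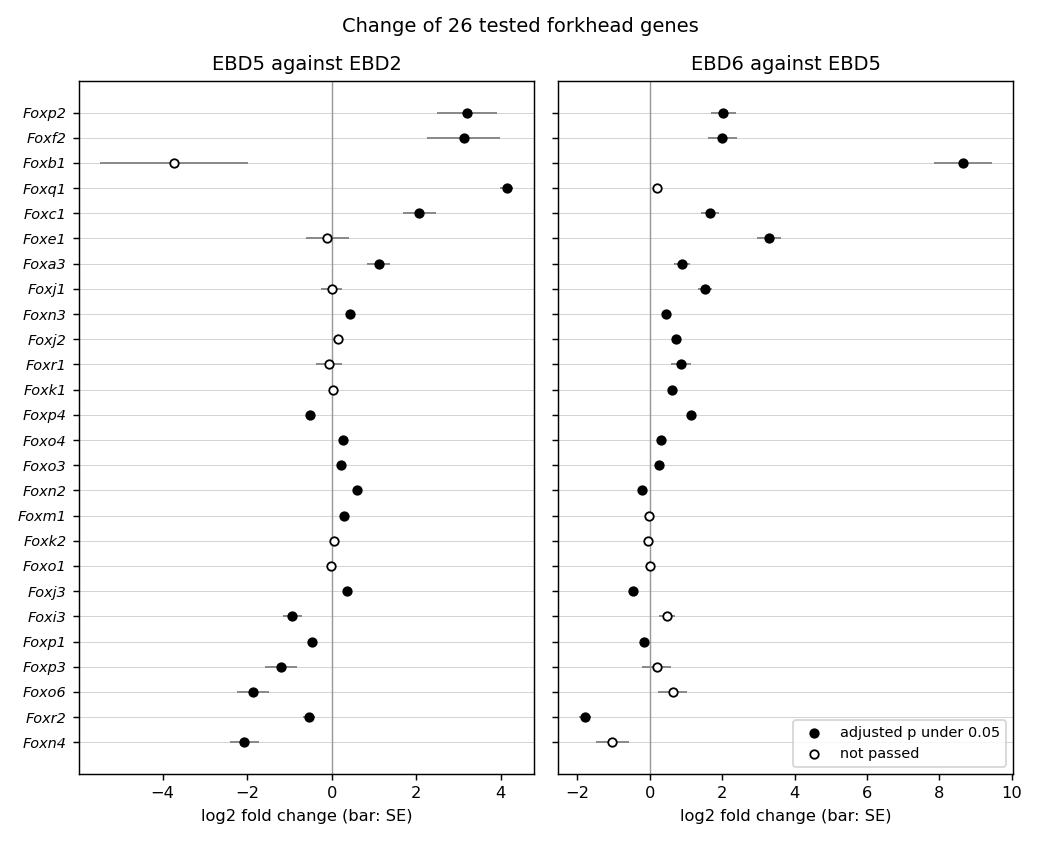
Log2 fold change with its SE of 26 of the 27 tested forkhead genes, for EBD5 against EBD2 (left) and EBD6 against EBD5 (right), ordered by the change from EBD2 to EBD6; filled points have an edgeR adjusted p under 0.05. Foxq1 moves furthest to the right among filled points on the left at 4.14, and Foxr2 furthest to the left on the right at -1.79; the value of Foxb1 rests on a group with no count.

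Base composition bears on these values. Transcripts of forkhead genes had a median GC content of 55.9% (41.2% to 73.1%) against 48.7% for all protein-coding genes, and 20 of the 27 tested genes lay above the 49.5% median of all tested genes. A fit with offsets for GC content and length, which centres the change of genes of like composition on 0, moved GC-rich members up in EBD5 against EBD2 and down in EBD6 against EBD5. With it, 15 rose and 4 fell at the first step and 12 rose and 7 fell at the second, against 11 and 7, and 15 and 4, without it. The counts over all genes with the offsets are not given here. The member counts with the offsets therefore describe the 27 tested genes and are no result about the family. Which of the 2 scalings is nearer to the amounts in the cells was not tested, and where the offsets ended a call, turned it or moved it by more than 1.5-fold the second value is given beside the first.

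**Figure D3:**
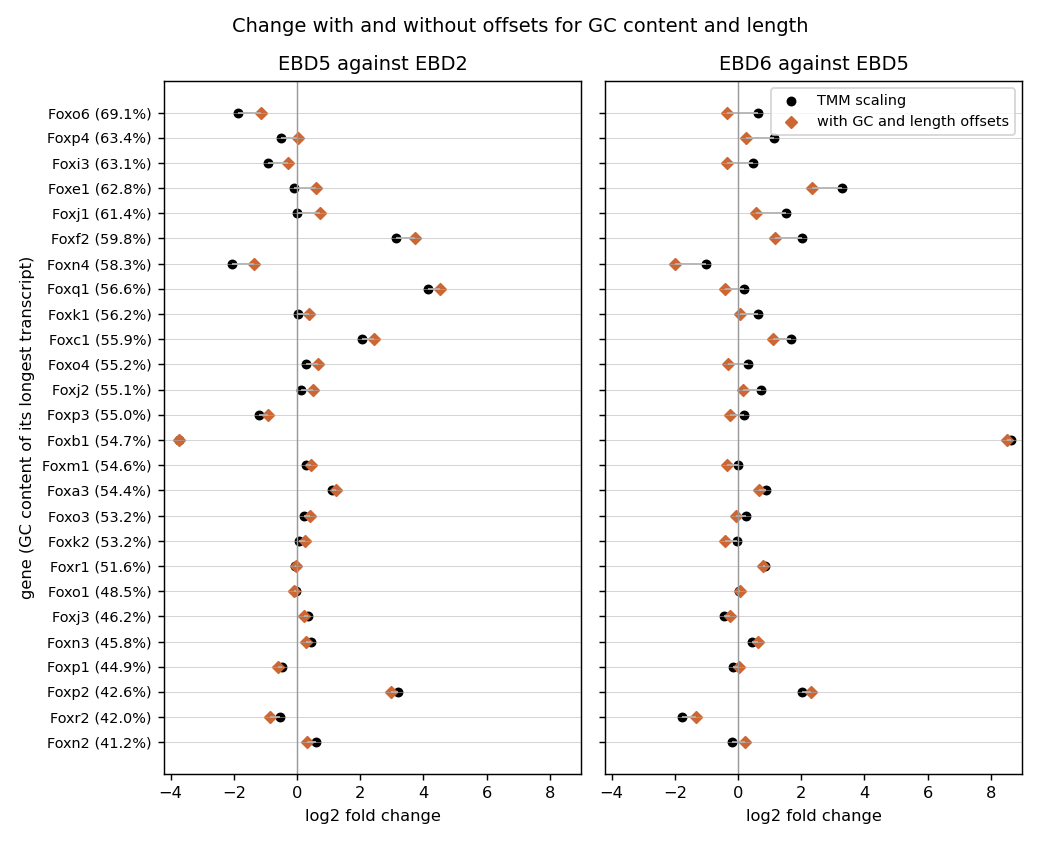
Log2 fold change of 26 of the 27 tested forkhead genes with TMM scaling (black circles) and with offsets for GC content and length (orange diamonds), for EBD5 against EBD2 (left) and EBD6 against EBD5 (right), ordered by GC content (41.2% for Foxn2 to 69.1% for Foxo6). The diamonds lie to the right of the circles for most GC-rich genes in the left panel and to the left of them in the right panel, so that Foxj1 goes from 1.52 to 0.57 and Foxp4 from 1.14 to 0.26 at the second step.

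The largest fitted rise at the first step was that of Foxq1, a regulator of epithelial and hair shaft differentiation. Scaled counts of Foxq1 came to 3.05, 2.94 and 2.82 CPM in EBD2, 47.3, 58.8 and 50.05 CPM in EBD5 and 56.2, 63.4 and 60.9 CPM in EBD6. No EBD2 library came near the lowest EBD5 library, while EBD5 and EBD6 overlapped. In EBD5 against EBD2 the change was 4.14 ± 0.16 SE on the log2 scale (17.7-fold higher, edgeR adjusted p = 4.45e-09). In EBD6 against EBD5 it was 0.19 ± 0.10 SE on the log2 scale (1.14-fold higher, edgeR adjusted p = 0.094), which turned to -0.42 (edgeR adjusted p = 0.00226) with the offsets. Without EBD5 replicate 2 or EBD6 replicate 1 the second change passed, at 0.29 and 0.27 (edgeR adjusted p = 0.0217 and 0.0428). Foxq1 lies at chr13:31556134-31560976 (mm10, plus strand, 1 exon). The opposite strand carries A530084C06Rik over 3200 exonic bases of it; that gene was listed at 0 counts in every library, and without a stated strand setting reads of the pair cannot be told apart.

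Foxf2 and Foxc1 are the next genes along the chromosome, at chr13:31625816-31631403 and chr13:31806633-31812476. The gaps are 64839 and 175229 bases, with no protein-coding gene between. Foxf2 acts in gut and palate mesenchyme, and Foxc1 in somites, eye, kidney and vessels. Foxf2 stood at 0.1697, 0 and 0 CPM in EBD2, at 0.539, 0.668 and 0.567 in EBD5 and at 1.76, 2.79 and 2.73 in EBD6. Its 3 EBD2 libraries held 1 count in all, EBD5 10 and EBD6 75, so EBD5 was 10.5-fold higher (95% counting interval 1.495 to 456) and EBD6 45.4-fold (7.90 to 1816). Without EBD2 replicate 1, which held that count, the fitted log2 changes of 3.12 and 5.13 became 5.34 and 7.34. With the offsets the fitted change in EBD5 against EBD2 was 3.73 in place of 3.12. In EBD6 against EBD5 the change was 2.01 ± 0.40 SE on the log2 scale (4.03-fold higher, edgeR adjusted p = 0.000874); with the offsets it was 1.18, and by DESeq2 the adjusted p was 0.0582, and 0.0569 in EBD5 against EBD2. The EBD2 libraries held 1.19, 1.14 and 0.528 CPM of Foxc1, the EBD5 libraries 5.21, 4.34 and 2.46, and the EBD6 libraries 12.7, 14.2 and 11.5. All 3 groups stood apart, and Foxc1 rose in EBD5 by 2.07 ± 0.39 SE on the log2 scale (4.2-fold higher, edgeR adjusted p = 0.000667) and again in EBD6 by 1.66 ± 0.24 SE on the log2 scale (3.15-fold higher, edgeR adjusted p = 0.000105); both calls held in all 21 alternatives. All 3 genes of this stretch were thus higher in EBD5 than in EBD2.

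Upstream sequence of this stretch was available for Foxf2 and Foxc1. Each line shows the last 100 bases before the RefSeq start site (GRCm38.p6), with Foxn4 and Foxr2, which fell, beside them; capitals mark a GC box (GGGCGG or CCGCCC).
Foxf2 (chr13:31625716-31625815, plus strand): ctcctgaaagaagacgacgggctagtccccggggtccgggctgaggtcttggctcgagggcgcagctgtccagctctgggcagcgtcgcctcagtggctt
Foxc1 (chr13:31806546-31806645, plus strand): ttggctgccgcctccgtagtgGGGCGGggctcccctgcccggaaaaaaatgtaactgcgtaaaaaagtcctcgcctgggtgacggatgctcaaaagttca
Foxn4 (chr5:114273762-114273861, minus strand): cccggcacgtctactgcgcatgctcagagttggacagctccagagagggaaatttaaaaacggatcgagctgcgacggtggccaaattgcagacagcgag
Foxr2 (chrX:153118688-153118787, plus strand): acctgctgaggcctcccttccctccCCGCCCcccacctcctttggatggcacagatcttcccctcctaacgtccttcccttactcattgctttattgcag
The RefSeq table held 28 start sites for 25 of the 39 genes. In the 250 bases before the start, forkhead promoters had a median GC content of 61.8% and 15.5 CpG dinucleotides, against 52.4% and 6 over 32851 promoters. A GC box on either strand stood in 20 of the 28 windows (32.7% of all promoters) and a CCAAT box (CCAAT or ATTGG) in 12 (33.8%). TATAAA or its reverse was found in 2 windows (12.4%), those of Foxa3 and a start site of Foxp3. The E-box CACGTG (6.02% of all promoters) and the forkhead core GTAAACA (3.17%) were found in none, which says only that these letters are not in these windows. GC boxes stood in promoters of genes that rose (Foxc1, Foxf2) and that fell (Foxn4, Foxr2) alike within 250 bases. Alternative start sites were counted as separate windows.

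The other FoxC member moved less clearly. Foxc2, a gene of lymphatic vessels and heart valves, held 16 counts over EBD2, 6 over EBD5 and 20 over EBD6 and was not tested. A list of genes of paraxial and intermediate mesoderm, where Foxc1 and Foxc2 act, had 6 of 12 genes tested. In EBD5 against EBD2 1 rose and 4 fell (median log2 change -1.35, against -0.01 over all genes), and in EBD6 against EBD5 3 rose and none fell (0.35 against 0.04). For this and every later list, 34.9% of all tested genes rose and 35.1% fell in EBD5 against EBD2. The shares were 36.9% and 33.3% in EBD6 against EBD5, and 33.8% and 32.3% in EBD6 against EBD2. Whether a list differed from these shares was not tested. Tcf15, a somite gene, fell from 25.8 ± 4.16 to 8.23 ± 0.744 CPM (edgeR adjusted p = 2.83e-06) and Tbx6, a presomitic gene, from 2.01 ± 0.101 to 0.998 ± 0.377 CPM (edgeR adjusted p = 0.0395). Pax3, a gene of somites and dorsal neural tube, rose from 1.86 ± 0.385 in EBD5 to 11.3 ± 0.251 CPM in EBD6 (edgeR adjusted p = 1.66e-06). Thus Foxc1 rose at the first step while most tested genes of that list were lower. Fibroblast markers (10 genes) summed to 32.4 to 34.4 CPM in EBD2, 32.3 to 33.3 in EBD5 and 54.3 to 69.5 in EBD6. Postn and Lum were at 0 in EBD2 and Lum in EBD5. Single markers moved apart, so the even sum of EBD2 and EBD5 does not show that each was unchanged. Thy1 had means of 22.5, 7.63 and 2.77 CPM in EBD2, EBD5 and EBD6, and Col1a2 0.125, 7.09 and 26.8. Endothelium and blood markers (7 genes) summed to 163.0 to 167.9 CPM in EBD2, 99.6 to 109.7 in EBD5 and 156.3 to 175.7 in EBD6. Hbb-bh1 was at 0 in EBD2 and EBD5. Of that list, Cdh5 had means of 0.171, 2.04 and 44.8 CPM in the 3 groups, and Pecam1 152.0, 60.2 and 81.3. The part of these cell types in the rises of Foxc1 and Foxf2 was not tested.

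Foxb1 and Foxe1 had their rise at the second step. Foxb1 acts in the hypothalamus and the spinal cord. For Foxb1 the levels were 0.339, 0.163 and 0 CPM in EBD2, 0, 0 and 0 in EBD5, and 4.93, 5.49 and 6.102 in EBD6. It was listed at 0 in EBD5 with 165 counts over EBD6, so EBD6 was at least 31.7-fold higher against 3 counts over the EBD5 group (edgeR adjusted p = 1.27e-05). Against the 3 counts of EBD2, EBD6 was 33.3-fold higher (95% counting interval 11.19 to 163), and its fitted log2 change of 4.92 became 5.79 without EBD2 replicate 1. EBD5 against EBD2 passed only without EBD2 replicate 3 (edgeR adjusted p = 0.0412 in place of 0.0851). An antisense gene, B230323A14Rik, overlaps 418 exonic bases of Foxb1 and held 6 and 5 counts in EBD6 replicates 2 and 3 and 0 elsewhere.

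Foxe1 is known for thyroid and palate development. In CPM, Foxe1 measured 0.339, 0.653 and 0.528 in EBD2, 0.539, 0.501 and 0.378 in EBD5 and 4.93, 4.41 and 4.898 in EBD6. EBD2 and EBD5 overlapped and EBD6 lay above both, by 3.29 ± 0.33 SE on the log2 scale (9.78-fold higher, edgeR adjusted p = 5.09e-06) against EBD5, or 2.35 (edgeR adjusted p = 0.000195) with the offsets. Its nearest relative Foxe3, a lens gene, held 4 counts, all in EBD6. Foxl2, a gene of the ovary and eyelid, showed 0 counts in EBD2, 2, 2 and 0 in EBD5 and 6, 23 and 16 in EBD6. It did not pass the filter and was at least 9.08-fold higher in EBD6 than in EBD2 against 3 counts over the group. Foxp2, a gene of brain and lung, rose at both steps. Scaled counts of Foxp2 came to 0.1697, 0 and 0.352 CPM in EBD2, 1.26, 1.003 and 2.83 CPM in EBD5 and 6.52, 7.11 and 6.99 CPM in EBD6. EBD5 exceeded EBD2, which held 3 counts, 9.81-fold (95% counting interval 3.03 to 50.4), and EBD6 exceeded EBD5 by 2.03 ± 0.35 SE on the log2 scale (4.07-fold higher, edgeR adjusted p = 0.000313). Without EBD2 replicate 3 the fitted log2 change of Foxp2 moved from 3.19 to 4.13 in EBD5 against EBD2 and from 5.21 to 6.15 in EBD6 against EBD2.

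**Figure D4:**
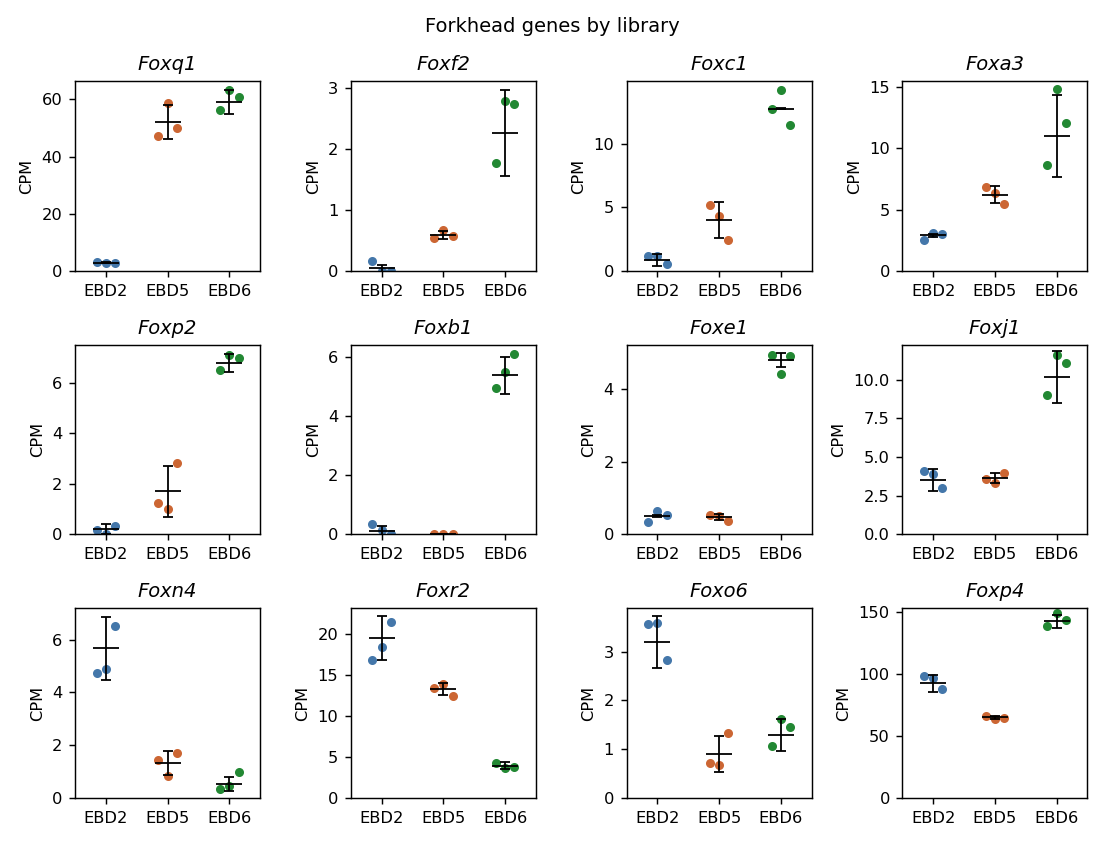
CPM of 12 forkhead genes in each library (points) with the mean and SD over samples (black; n = 2, 3 and 2), by group; each panel has its own axis from 0. Foxq1 rises between EBD2 and EBD5, Foxb1, Foxe1 and Foxj1 between EBD5 and EBD6, and Foxn4, Foxr2 and Foxo6 have their highest level in EBD2.

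Lists of the territories of these genes gave mixed directions at the first step and more rises at the second. Of 10 anterior neural genes, all tested, 4 rose and 4 fell in EBD5 against EBD2 (median log2 change -0.31), and 7 rose and 2 fell in EBD6 against EBD5 (1.81). Six3, a forebrain and eye gene, rose from 3.29 ± 0.749 to 29.7 ± 1.60 CPM (edgeR adjusted p = 9.55e-08), and Six6 from 2.81 ± 0.513 to 20.6 ± 0.730 CPM (edgeR adjusted p = 1.62e-06). Otx2, expressed in the epiblast as well as the anterior brain, fell from 291.7 ± 7.99 to 94.2 ± 5.61 CPM (edgeR adjusted p = 1.82e-08). Of 11 placode and surface ectoderm genes, 9 were tested; 6 rose and 3 fell at the first step (median 1.11), and 7 rose and 1 fell at the second (1.46). Dlx3 rose from 1.37 ± 0.312 to 32.0 ± 2.39 CPM (edgeR adjusted p = 1.83e-08) and Trp63, a gene of stratified epithelia, from 0.305 ± 0.227 to 8.36 ± 0.115 CPM (edgeR adjusted p = 2.03e-06). The medians over all genes at these steps were -0.01 and 0.04. Gata3 and Dlx3 are also known from trophoblast, whose markers (6 genes) summed to 4.40 to 6.62 CPM in EBD2, 6.35 to 8.12 in EBD5 and 100.5 to 106.9 in EBD6. In that list Cdx2, Elf5 and Prl3d1 were at 0 in EBD2 and Prl3d1 in EBD5. Neural markers (5 genes) summed to 67.8 to 74.4, 34.4 to 40.1 and 53.9 to 61.0 CPM, with Neurog2 at 0 in EBD2 and EBD5. The part of other cell types in the rise of Foxb1 and Foxe1 was not tested.

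Foxa3, hepatocyte nuclear factor 3 gamma, is the one member of its subfamily within the rule and is known from liver and gut endoderm. Foxa3 stood at 2.54, 3.1 and 2.99 CPM in EBD2, at 6.83, 6.35 and 5.48 in EBD5 and at 8.63, 14.8 and 12.04 in EBD6. The groups did not overlap, and Foxa3 rose by 1.11 ± 0.27 SE on the log2 scale (2.15-fold higher, edgeR adjusted p = 0.00331) in EBD5 and by 0.89 ± 0.21 SE on the log2 scale (1.86-fold higher, edgeR adjusted p = 0.0024) in EBD6. The summed level of the visceral endoderm markers was higher in EBD5 than in EBD6, while single markers differed: Afp, Ttr, Amn and Rhox5 had their highest mean in EBD6 and the other 4 in EBD5. Among them Cubn, a receptor of that epithelium, stood at 4.06 ± 0.0177, 1125 ± 12.2 and 405.9 ± 6.20 CPM, while Afp stood at 0.426 ± 0.104, 71.6 ± 1.98 and 137.8 ± 10.7 CPM. Parietal endoderm markers (6 genes, none at 0) summed to 271.9 to 293.0, 1506 to 1596 and 1999 to 2108 CPM. The part of endoderm in the level of Foxa3 was not tested.

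Foxj1, the regulator of motile cilia, rose in EBD6. The EBD2 libraries held 4.07, 3.92 and 2.99 CPM of Foxj1, the EBD5 libraries 3.595, 3.34 and 3.97, and the EBD6 libraries 8.98, 11.6 and 11.1. EBD2 and EBD5 overlapped at 3.49 ± 0.706 and 3.63 ± 0.314 CPM, and EBD6 exceeded EBD5 by 1.52 ± 0.20 SE on the log2 scale (2.87-fold higher, edgeR adjusted p = 4.85e-05). With the offsets that change was 0.57 (edgeR adjusted p = 0.0185), and the change at the first step became 0.73 (edgeR adjusted p = 0.012) in place of 0.00. Genes of the motile cilium went another way: of 20 listed, 18 were in the table and 11 tested. At the first step 7 fell and none rose (median log2 change -1.51 against -0.01 over all genes), and at the second 2 rose and 2 fell (-0.21 against 0.04). In EBD6 against EBD2, 9 of the 11 were lower and none higher, while Foxj1 was higher by 1.53 ± 0.21 SE on the log2 scale (2.88-fold higher, edgeR adjusted p = 8.08e-05). Rsph1, of the radial spoke, fell from 22.7 ± 0.309 to 3.43 ± 1.65 CPM (edgeR adjusted p = 1.65e-06) and then stood at 7.69 ± 0.163 CPM in EBD6 (edgeR adjusted p = 0.00162). Hydin, of the central pair, stood at 21.7 ± 2.27, 3.84 ± 0.401 and 2.52 ± 0.575 CPM, with an edgeR adjusted p of 1.57e-07 in EBD6 against EBD2.

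Of 8 listed regulators that act with Foxj1, 5 were tested, and 1 rose and 4 fell in EBD5 against EBD2. Ccno, needed for centriole amplification in multiciliated cells, fell from 15.3 ± 3.68 to 0.931 ± 0.496 CPM (edgeR adjusted p = 1.15e-06), and Rfx2 from 62.2 ± 1.55 to 19.1 ± 0.522 CPM (edgeR adjusted p = 2.06e-07). Foxn4, which promotes amacrine cells in the retina, was lower as well. For Foxn4 the levels were 4.75, 4.89 and 6.52 CPM in EBD2, 1.44, 0.836 and 1.7 in EBD5, and 0.352, 0.4497 and 0.964 in EBD6. In EBD5 it fell by 2.07 ± 0.34 SE on the log2 scale (4.19-fold lower, edgeR adjusted p = 0.000251); with the offsets the change was -1.36 (edgeR adjusted p = 0.00495). EBD6 differed from EBD5 by -1.03 ± 0.45 SE on the log2 scale (2.05-fold lower, edgeR adjusted p = 0.0594). That second change passed with the offsets (-2.01, edgeR adjusted p = 0.00269), without EBD5 replicate 2 (-1.28, 0.035), without EBD6 replicate 3 (-1.61, 0.0156), and in the fits of 9 separate libraries (-1.02, 0.0493).

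The other FoxJ genes belonged to the core. Foxj2 is a widely expressed activator. In CPM, Foxj2 measured 28.3, 27.6 and 29.8 in EBD2, 31.6, 28.9 and 34.8 in EBD5 and 47.4, 50.8 and 59.8 in EBD6. It rose in EBD6 against EBD5 by 0.72 ± 0.10 SE on the log2 scale (1.65-fold higher, edgeR adjusted p = 7.01e-05); with the offsets the change was 0.15 (edgeR adjusted p = 0.153), and the one in EBD5 against EBD2 passed at 0.52 in place of 0.14. Foxj3, active in muscle and testis, was highest in EBD5. Scaled counts of Foxj3 came to 97.4, 102 and 102 CPM in EBD2, 131, 123 and 134 CPM in EBD5 and 93.9, 92.4 and 96.99 CPM in EBD6. It rose by 0.36 ± 0.06 SE on the log2 scale (1.29-fold higher, edgeR adjusted p = 0.000263) and then fell by 0.45 ± 0.06 SE on the log2 scale (1.37-fold lower, edgeR adjusted p = 4.45e-05).

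FoxO proteins carry the response to insulin and growth factors, since Akt and SGK kinases keep them in the cytoplasm. Foxo1 did not pass at any step. Foxo1 stood at 95.9, 98.7 and 102 CPM in EBD2, at 96.4, 95.3 and 104 in EBD5 and at 98.5, 99.02 and 102 in EBD6. All libraries lay within 95.3 to 104 CPM, and the log2 change was -0.02 ± 0.06 SE at the first step and 0.02 ± 0.06 at the second. The EBD2 libraries held 113, 110.5 and 111 CPM of Foxo3, the EBD5 libraries 129.8, 134 and 126, and the EBD6 libraries 149, 162 and 163. It rose by 0.23 ± 0.06 SE on the log2 scale (1.17-fold higher, edgeR adjusted p = 0.00682) and then by 0.26 ± 0.06 SE on the log2 scale (1.2-fold higher, edgeR adjusted p = 0.00214), although with the offsets the second change was -0.08 (edgeR adjusted p = 0.222). For Foxo4 the levels were 101, 99.4 and 97.03 CPM in EBD2, 116, 112 and 129 in EBD5, and 149, 147 and 142 in EBD6. Its groups did not overlap either, with 0.27 ± 0.07 SE on the log2 scale (1.21-fold higher, edgeR adjusted p = 0.00484) at the first step; the 0.30 of the second (edgeR adjusted p = 0.00199) turned to -0.31 (edgeR adjusted p = 0.00431) with the offsets. Foxo6, known from the brain, was the scarce member and went the other way. In CPM, Foxo6 measured 3.56, 3.59 and 2.82 in EBD2, 0.719, 0.668 and 1.32 in EBD5 and 1.06, 1.62 and 1.45 in EBD6. In EBD5 it fell by 1.86 ± 0.37 SE on the log2 scale (3.63-fold lower, edgeR adjusted p = 0.000943); with the offsets the change was -1.14 (edgeR adjusted p = 0.0162). EBD6 differed from EBD2 by -1.22 ± 0.33 SE on the log2 scale (2.33-fold lower, edgeR adjusted p = 0.00677), where DESeq2 gave an adjusted p of 0.112.

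Genes of the signalling upstream of FoxO were measured alongside. Of 17 genes, all tested, 11 rose and 3 fell in EBD5 against EBD2 (median log2 change 0.28), and 6 rose and 6 fell in EBD6 against EBD5 (-0.01). Over all tested genes 34.9% rose and 35.1% fell at the first step (median -0.01), and 36.9% and 33.3% at the second (0.04). The same background holds for the lists of FoxO targets, FoxM1, FoxK and FoxP below. Many of their counts lie near it and are no result about those lists. Akt1 rose at the second step, from 82.8 ± 3.14 to 164.0 ± 1.32 CPM (edgeR adjusted p = 1.21e-07). Known FoxO targets did not share a direction: of 18 listed, 17 were tested, 6 rose and 6 fell at the first step, and 5 rose and 8 fell at the second (medians -0.08 and -0.20). The cell cycle inhibitor Cdkn1b rose from 106.0 ± 4.01 to 219.2 ± 11.5 CPM (edgeR adjusted p = 3.86e-07) and then fell to 143.5 ± 11.3 CPM (edgeR adjusted p = 1.45e-05). Klf2 ran opposite to it, from 115.7 ± 2.53 to 32.8 ± 4.43 CPM (edgeR adjusted p = 3.46e-08) and back to 98.9 ± 3.93 CPM (edgeR adjusted p = 1.25e-07).

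Foxm1 drives genes of the G2 and M phases together with the MuvB complex. Scaled counts of Foxm1 came to 145, 146 and 142 CPM in EBD2, 169, 186 and 166 CPM in EBD5 and 169, 176 and 176 CPM in EBD6. It rose in EBD5 by 0.28 ± 0.07 SE on the log2 scale (1.21-fold higher, edgeR adjusted p = 0.00307), and EBD5 and EBD6 overlapped. The second change was -0.01 ± 0.06 SE on the log2 scale (1.01-fold lower, edgeR adjusted p = 0.918). With the offsets Foxm1 fell at the second step by 0.35 (edgeR adjusted p = 0.00131), and EBD6 no longer differed from EBD2 past the threshold (0.10, edgeR adjusted p = 0.262). Its G2 and M targets, 14 listed and tested, were divided: 2 rose and 5 fell at the first step, 5 rose and 7 fell at the second (medians 0.05 and -0.12). Ccnb1, cyclin B1, rose from 168.6 ± 0.340 to 366.3 ± 17.6 CPM (edgeR adjusted p = 1.42e-07) and fell to 164.5 ± 9.58 CPM (edgeR adjusted p = 1.36e-07). Plk1, a mitotic kinase, fell from 200.3 ± 5.17 to 134.1 ± 7.62 CPM at the first step (edgeR adjusted p = 1.21e-05). A further list of 8 genes, all tested, held subunits of MuvB together with Mybl2, E2f1 and E2f3. Of these 8 genes, 3 rose and 3 fell at the first step and 3 rose and 4 fell at the second. Mybl2 fell from 349.5 ± 36.7 to 187.3 ± 14.3 CPM (edgeR adjusted p = 2.94e-06) and E2f1 from 96.8 ± 0.275 to 31.8 ± 2.15 CPM (edgeR adjusted p = 5.21e-08).

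FoxK proteins recruit the histone deubiquitinase BAP1 and repress autophagy genes. Foxk2 stood at 129.6, 123 and 125 CPM in EBD2, at 129.6, 129 and 134 in EBD5 and at 124, 129.6 and 128 in EBD6. Its groups overlapped and it passed at no step, with 0.06 ± 0.06 SE on the log2 scale (1.04-fold higher, edgeR adjusted p = 0.351) and -0.05 ± 0.06 SE on the log2 scale (1.04-fold lower, edgeR adjusted p = 0.434); with the offsets it passed as higher in EBD5 (0.24) and lower in EBD6 (-0.40). The EBD2 libraries held 81.4, 75.05 and 74.7 CPM of Foxk1, the EBD5 libraries 76.8, 73.5 and 83.3, and the EBD6 libraries 112, 124 and 125. EBD6 was above the other groups, by 0.62 ± 0.07 SE on the log2 scale (1.53-fold higher, edgeR adjusted p = 1.92e-05) against EBD5, a change that came to 0.06 (edgeR adjusted p = 0.48) with the offsets. With them Foxk1 passed as higher in EBD5 than in EBD2, at 0.39 (edgeR adjusted p = 0.000575) in place of 0.02 (0.819). In the list of the BAP1 complex, 8 genes tested, 3 rose and 3 fell at the first step (median log2 change 0.11) and 2 rose and 4 fell at the second (-0.31). Mbd6 fell from 89.9 ± 3.57 to 35.2 ± 1.60 CPM (edgeR adjusted p = 2.11e-07) and rose to 83.8 ± 9.18 CPM (edgeR adjusted p = 3.39e-07), and Bap1 itself rose at the second step from 122.6 ± 2.69 to 145.6 ± 2.82 CPM (edgeR adjusted p = 0.00401).

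FoxP proteins form dimers with each other and mostly repress. Foxp4 and Foxp1, both of the core, parted at the second step. For Foxp4 the levels were 98.6, 96.3 and 87.5 CPM in EBD2, 66.3, 63.3 and 64.8 in EBD5, and 139, 149 and 144 in EBD6. EBD5 was the lowest group and EBD6 the highest, with -0.52 ± 0.07 SE on the log2 scale (1.44-fold lower, edgeR adjusted p = 5.02e-05) and 1.14 ± 0.07 SE on the log2 scale (2.2-fold higher, edgeR adjusted p = 1.24e-07). With the offsets the first change was 0.03 (edgeR adjusted p = 0.705) and the second 0.26 (edgeR adjusted p = 0.00666). In CPM, Foxp1 measured 131, 121 and 128 in EBD2, 92.04, 88.9 and 96.3 in EBD5 and 83.3, 79.3 and 86.8 in EBD6. It fell by 0.46 ± 0.06 SE on the log2 scale (1.37-fold lower, edgeR adjusted p = 4.13e-05), and the second fall, -0.15 ± 0.06 SE on the log2 scale (1.11-fold lower, edgeR adjusted p = 0.0443), was lost with the offsets (0.04), by DESeq2 (adjusted p = 0.129) and without any 1 of EBD2 replicate 3, EBD5 replicates 1 or 3 and EBD6 replicates 1 or 2 (edgeR adjusted p 0.0735 to 0.125). Foxp3, the regulator of regulatory T cells, was scarce. Scaled counts of Foxp3 came to 1.53, 2.45 and 3.52 CPM in EBD2, 1.08, 1.003 and 1.32 CPM in EBD5 and 1.58, 0.809 and 1.53 CPM in EBD6. It fell by 1.19 ± 0.38 SE on the log2 scale (2.28-fold lower, edgeR adjusted p = 0.016), a call lost without EBD2 replicate 3 or EBD5 replicate 2 (edgeR adjusted p = 0.128 and 0.0518), with the offsets (0.0594) and by DESeq2 (0.107). The change of -0.99 in EBD6 against EBD2 (edgeR adjusted p = 0.0309) was lost without EBD2 replicate 3 or EBD6 replicates 1 or 2 (edgeR adjusted p 0.0512 to 0.254), with no filter (0.0548) and by DESeq2 (0.22). Its exons overlap those of Ccdc22, Ppp1r3f, Flicr and Gm36995, of which Ccdc22 held 56 to 440 counts per library, so its value is uncertain. Of 9 FoxP corepressors, all tested, 3 rose and 3 fell at the first step (median 0.06) and 5 rose and 3 fell at the second (0.33). Hdac1 rose from 116.0 ± 3.19 to 171.7 ± 14.1 CPM (edgeR adjusted p = 0.000124) and then fell to 119.1 ± 12.4 CPM (edgeR adjusted p = 0.000138).

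FoxN2 and FoxN3 belong to the broad set. Foxn3 stood at 93.7, 97.7 and 87.9 CPM in EBD2, at 126, 116 and 132 in EBD5 and at 164, 176 and 168 in EBD6. It rose at both steps with no overlap, by 0.43 ± 0.07 SE on the log2 scale (1.35-fold higher, edgeR adjusted p = 0.000286) and 0.44 ± 0.07 SE on the log2 scale (1.35-fold higher, edgeR adjusted p = 0.000153). The EBD2 libraries held 62.8, 69.5 and 71.3 CPM of Foxn2, the EBD5 libraries 105, 103 and 103, and the EBD6 libraries 91.8, 90.9 and 86.3. EBD5 was highest, after 0.60 ± 0.06 SE on the log2 scale (1.51-fold higher, edgeR adjusted p = 9.71e-06); the change of -0.20 in EBD6 (edgeR adjusted p = 0.0109) turned to 0.21 (edgeR adjusted p = 0.00714) with the offsets. Foxn1, the thymic epithelial gene, held 1 count in 1 EBD6 library.

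Foxr2, a gene of the X chromosome that some tumours switch on, had the largest fall past the threshold at the second step with TMM scaling; with the offsets it was -1.32, and that of Foxn4, at -2.01, was larger. For Foxr2 the levels were 16.8, 18.4 and 21.5 CPM in EBD2, 13.5, 13.9 and 12.5 in EBD5, and 4.23, 3.598 and 3.77 in EBD6. Its groups did not overlap, with -0.54 ± 0.14 SE on the log2 scale (1.45-fold lower, edgeR adjusted p = 0.00547) and then -1.79 ± 0.17 SE on the log2 scale (3.45-fold lower, edgeR adjusted p = 3.59e-06); DESeq2 gave an adjusted p of 0.0541 for the first. Foxr1 went the other way. In CPM, Foxr1 measured 2.21, 3.59 and 1.94 in EBD2, 2.52, 2.67 and 2.08 in EBD5 and 3.52, 5.22 and 4.66 in EBD6. It rose in EBD6 against EBD5 by 0.86 ± 0.27 SE on the log2 scale (1.82-fold higher, edgeR adjusted p = 0.0153) (DESeq2 adjusted p = 0.167). The rise of 0.80 against EBD2 (edgeR adjusted p = 0.0275) was lost without EBD2 replicate 1 or 3 or EBD6 replicate 2 (edgeR adjusted p 0.0507 to 0.14) and by DESeq2 (0.22). Foxi3, which acts in the ectoderm of the jaw and the ear placode, was highest in EBD2. Scaled counts of Foxi3 came to 6.96, 6.85 and 10.2 CPM in EBD2, 4.13, 4.51 and 4.34 CPM in EBD5 and 5.64, 6.296 and 6.26 CPM in EBD6. It fell by 0.93 ± 0.22 SE on the log2 scale (1.9-fold lower, edgeR adjusted p = 0.0032), a call lost with the offsets (-0.30, edgeR adjusted p = 0.274). EBD6 differed from EBD5 by 0.48 ± 0.22 SE on the log2 scale (1.4-fold higher, edgeR adjusted p = 0.0729), which passed without EBD2 replicate 3 (edgeR adjusted p = 0.0426) and with 9 separate libraries (0.0387), and was -0.36 (edgeR adjusted p = 0.192) with the offsets. In EBD6 against EBD2 the change of -0.45 (edgeR adjusted p = 0.0863) passed with the offsets, at -0.66 (edgeR adjusted p = 0.0172).

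The remaining members were scarce and, with Foxc2, Foxe3, Foxl2 and Foxn1, make up the 12 not tested. Foxd4 held 14, 9 and 7 counts in EBD2, 1, 1 and 3 in EBD5 and 0, 5 and 6 in EBD6, so that its EBD2 libraries were the highest, at 1.23 to 2.38 CPM. Foxd1, a gene of kidney stroma, held 21 counts over EBD2, 3 over EBD5 and 30 over EBD6; EBD6 was 5.76-fold above EBD5 (95% counting interval 1.79 to 29.5) and EBD2 6.66-fold (1.99 to 34.9). Foxd2 held 2, 4 and 18 counts by group. Foxl1, of gut mesenchyme, held 5 counts, all in EBD6; Foxi2 held 2, in EBD6 replicate 1; and Foxs1 held 2, in EBD2 replicate 2. Foxi1, of the inner ear and kidney, and Foxb2 held 0 counts in all 9 libraries. A count of 0 over a group still allows up to 3 counts, so Foxi1 and Foxb2 were not detected at this depth, which does not show that they were absent.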

How the data were processed

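The 9 libraries hold polyadenylated RNA of wild-type mouse cells in embryoid body culture. STAR 2.7.10a, RSEM and the build mm10 were used per the submitters' processing notes, which also name cutadapt 1.18; annotation and strand setting were not given in the sources used here. The authors deposited expected counts, that is, estimated reads per gene, unscaled. After rounding and TMM scaling, edgeR 4.0.16 under R 4.3.3 gave the tests (quasi-likelihood, all groups in one fit, filterByExpr, Benjamini-Hochberg over 16168 genes, calls under 0.05). The fit had 7 samples, 4 residual degrees of freedom and a biological coefficient of variation of 6.72%, because 2 pairs of near-identical libraries were summed. The design set this summing for pairs that a chi-square test found to agree within sampling noise. A fit of 9 separate libraries is given as an alternative. Depth was 5453399 to 11703388 counts; intervals and floors (3 counts) cover counting error only. 1 row that names no gene (at most 0.0157% of counts) was left out. Symbols and exon lengths came from GENCODE M21 (99.7% of IDs). Alternatives included DESeq2 1.42.0, limma-voom 3.58.1, other filters, a test against a fold of 1.5, offsets for GC content and length, the replicate number as a block and leaving out each library. The script was tested on simulated data. Every member may be named, and from each list at most 4 genes per comparison and direction with the largest significant change and at least 1 CPM in a group. The members and lists were chosen with earlier results of these data known. Values of a member, some genes of the lists and some sequences are not reported here, but counts over the members and lists include them.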

Additional observations from a re-analysis of the deposited data

How the results depend on the processing

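Of 60 gene and comparison pairs called among 81 tested, 27 kept direction and call in every alternative that tested them (20 or 21 of 21), and 43 in every one but the test against a fold of 1.5. Offsets for GC content and length, alone or with the replicate block, turned 7 changes that passed in at least 1 of the fits compared: Foxp4 in EBD5 against EBD2 to 0.03, in EBD6 against EBD5 Foxp1 to 0.04, Foxn2 to 0.21, Foxo3 to -0.08, Foxo4 to -0.31 (-0.34 with the block) and Foxq1 to -0.42 (-0.43), and in EBD6 against EBD2 Foxk2 to -0.16. With these offsets 4 forkhead genes were lower in EBD5 than EBD2 in place of 7, and 7 lower in EBD6 than EBD5 in place of 4, the same with the block. The cause was not tested. Against a fold of 1.5, the forkhead counts were 5 higher and 2 lower in EBD5 against EBD2, 8 and 1 in EBD6 against EBD5, and 11 and 3 in EBD6 against EBD2. Over all genes these were 2972 and 2634, 2844 and 2473, and 2655 and 2263, in place of 5641 and 5678, 5973 and 5383, and 5457 and 5228; a stricter hypothesis calls fewer genes by construction. A filter of 5 CPM in 3 libraries, which drops scarce members, left 4 lower in EBD5 than EBD2 and 2 lower in EBD6 than EBD2. Without a filter 2 were lower in EBD6 than EBD5; the median of all genes then moved to 0.24 there and to 0.19 in EBD6 against EBD2, and Foxn2 did not pass (edgeR adjusted p = 0.151). DESeq2 called 3 lower in EBD6 than EBD2. With 9 separate libraries 11 were higher and 6 lower at the first step, 17 and 5 at the second, and 18 and 4 in EBD6 against EBD2, and Foxq1 passed at the second step (edgeR adjusted p = 0.0371). Replicate numbers did not pair the samples, with correlations of same-numbered libraries from -0.087 to 0.047. With them as a replicate block the counts were 11 and 6, 16 and 5, and 18 and 4. Except for the fold of 1.5, member counts of the alternatives are given without those over all genes. They show how calls of the tested members moved and are no result about the family. Leaving out 1 library left 706 of the values on their side of the threshold, lost 13, gained 7 and turned 0; where it leaves 1 sample in a group, that sample is assumed to vary like the others. Depth limits the 12 members that were not tested. Sequencing instrument is not given per library, so its part was not tested.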
